A study of Drosophila melanogaster with 6 samples.

Results

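The genes described here encode the subunits of the mitochondrial oxidative phosphorylation (OXPHOS) machinery that are made from the nuclear genome. They are the 81 of 14240 genes in the transcript table whose name begins with ND- (complex I, 40 genes), Sdh (complex II, 7 genes), UQCR- (complex III, 8 genes), COX (complex IV, 11 genes) or ATPsyn (complex V, 15 genes). The choice within the table was by name alone. The list holds 62 subunits, 18 paralogs whose names end in L, and Sdhaf3, which takes its name from an assembly factor of complex II and is not a subunit.

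RNA was made in early L3 Drosophila melanogaster larvae and recovered from the carcass, in which muscle, epidermis and peripheral neurons are the main cells. All larvae carried UAS-CD:UPRT, a transgene for a fusion of cytosine deaminase and uracil phosphoribosyltransferase, which lets a cell turn 5-ethynylcytosine into a tagged nucleotide for new RNA. In the EC samples (n = 2) the driver 109(2)80-Gal4 placed CD:UPRT in multidendritic (md) sensory neurons and the larvae ate 5-ethynylcytosine for 12 h. The driver is also active in central neurons, which were removed in dissection. In the EUd samples (n = 2) there was no Gal4 and the larvae ate 5-ethynyluridine for 12 h, which tags RNA in every cell and gives the reference RNA of the carcass. In the mock samples (n = 2) larvae with the transgene and no Gal4 ate neither compound, so the RNA recovered is what the purification carries over. The study gives the replicates as separate feedings, dissections and purifications.

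Oxidative phosphorylation passes electrons from NADH (complex I) and succinate (complex II) through complex III to complex IV, which reduces oxygen. The protons moved across the inner membrane on the way drive ATP synthase, complex V. The enzymes are assembled from subunits of 2 genomes, except complex II, which is wholly nuclear-encoded. Larval body wall muscle and neurons both depend on this pathway, and its transcripts are abundant in most tissues.

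Values are TPM, read counts divided by transcript length and scaled to the same total in every library, summed over the transcripts of a gene, with a blank cell read as 0. Low TPM values mostly stood for whole reads. TPM multiplied by transcript length less 198 or 199 bases gave multiples of 1 step per library in 79.0 to 93.3% of the values of up to 5 reads in single-transcript genes (within 0.05 of a read), and genes of several transcripts also had fractions of a read. By this step 1 read over 1000 effective bases was worth 0.0394 and 0.0333 TPM in EUd, 0.56 and 0.206 TPM in EC, and 11.6 and 21.1 TPM in mock, for replicates 1 and 2 in each case. Summed over the table, this comes to about 47800000 and 56400000 reads in EUd, 2650000 and 7650000 reads in EC, and 127000 and 105000 reads in mock. Of all genes, 67.5 and 70.5% had at least 10 reads in the EUd libraries, 11.1 and 17.6% in EC, and 1.79 and 1.28% in mock. The 10 muscle markers examined were each below both EUd values in both EC libraries, with summed levels of 38226 and 38828 TPM in EC against 79246 and 71766 TPM in EUd. The 7 md neuron markers summed to 2.86 TPM in EC replicate 1 and 155 TPM in EC replicate 2, against 153 and 142 TPM in EUd, and kn and ppk were at 0 in EC replicate 1. In EC replicate 2 the sum was level with reference, ppk was at 0.0910 TPM against 6.79 and 4.80 TPM in EUd, and pain and nompC were at 0. The 8 pan-neuronal markers summed to 319 and 951 TPM in EC against 378 and 316 TPM in EUd. The sum in EC replicate 2 was led by elav, Csp and Syx1A, at 331, 300 and 289 TPM. Of the 8, 1 (Csp) was above both EUd values in both EC libraries. Syt1 was below them in both, at 0.168 and 0.444 TPM against 9.05 and 12.8 TPM, and the others overlapped. The 6 markers of cuticle-forming epidermis summed to 25847 and 38936 TPM against 17092 and 14082 TPM. Lcp1, Lcp2 and Lcp4 were above both EUd values in both EC libraries. Lcp3, at 255 and 3.28 TPM in EC, overlapped its EUd values of 7.42 and 2.22 TPM. TwdlT and Cpr49Aa were at 0 in all 6 libraries. In mock the muscle markers summed to 16458 and 36084 TPM and the epidermis markers to 4178 and 146500 TPM. The md neuron markers summed there to 10.9 and 17.8 TPM and the pan-neuronal ones to 227 and 157 TPM. The pan-neuronal sums in mock were led by Syt1, at 152 and 53.8 TPM, and brp, at 27.0 and 80.4 TPM. By these markers EC replicate 1 goes against its md neuron label and neither EC library exceeded the carcass in all of them, so the counts of calls in EC are also given for each EC library alone.

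In reference RNA the OXPHOS genes were expressed across the list and close between replicates. Of the 62 subunits, 61 were above 0 in both EUd libraries, and ND-B8 was at 0 in all 6 libraries. The median of the 60 members that averaged 20 TPM or more in EUd was 103 TPM, with a range from 22.6 TPM to 3574 TPM. The replicates were within 2-fold of each other for 57 of these 60 genes. Complex V supplied 50.3 and 49.9% of the members' summed TPM, and complex I, with the most genes, 25.6 and 25.8%.

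The most abundant member was ATPsynC, which encodes the membrane ring through which protons turn the ATP synthase, at 3851 and 3296 TPM in EUd. ATPsynbeta, the catalytic subunit, was at 1607 and 1393 TPM. The next members in the order were UQCR-11 of complex III, at 863 and 700 TPM, and ATPsyndelta of the central stalk, at 758 and 727 TPM, and the values of these 2 genes overlapped. Complex II had the lowest summed level of the 5 complexes, and its leading gene SdhA, the flavoprotein that oxidises succinate, had 160 and 175 TPM.

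**Figure D1:**
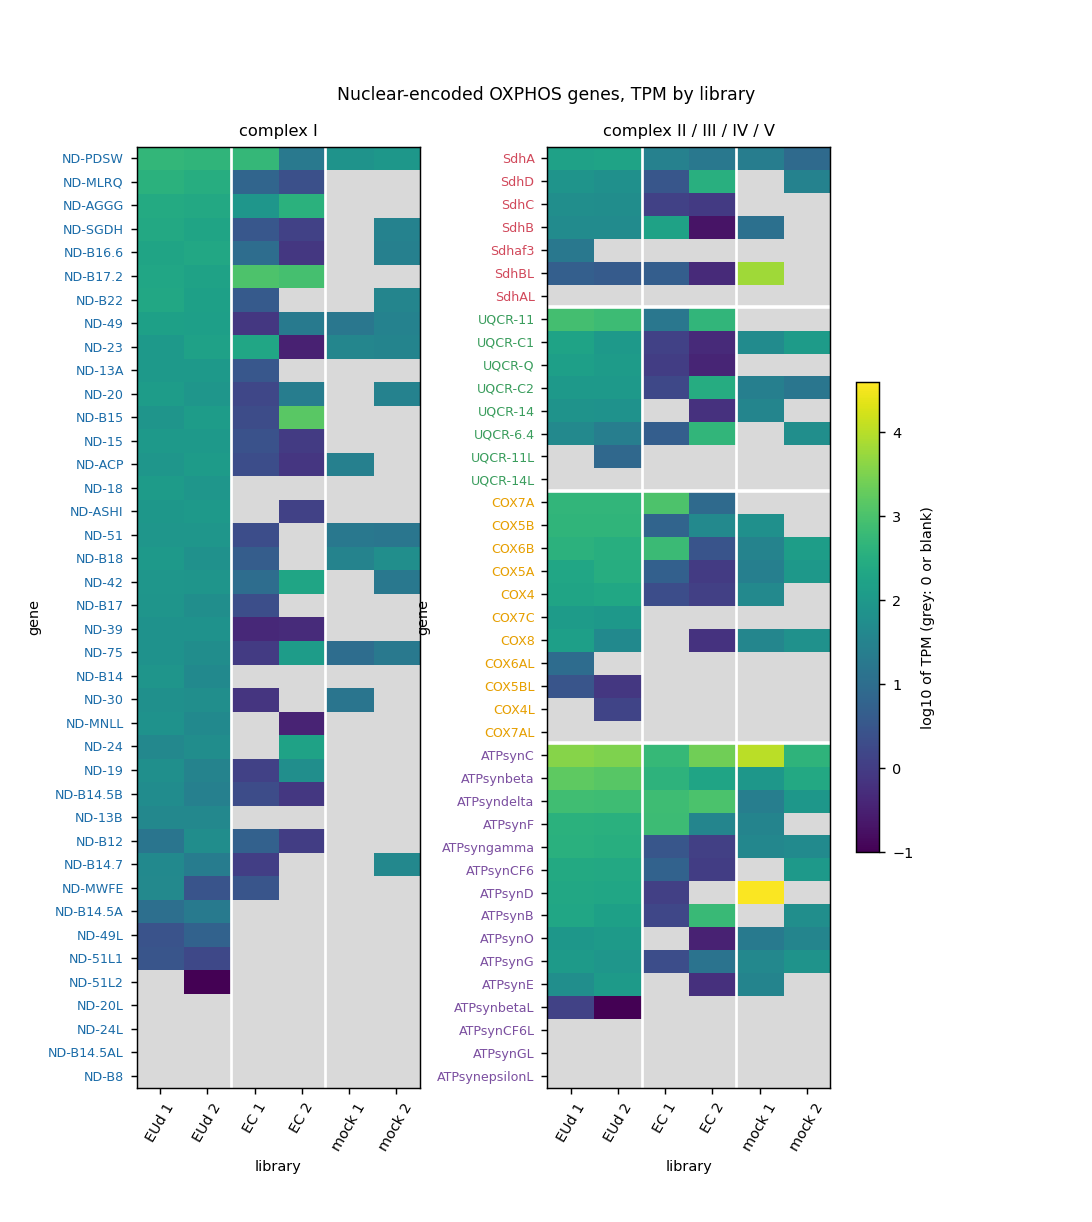
Level of each of the 81 genes (rows, ordered by complex and then by mean EUd level) in each of the 6 libraries (columns), as log10 of TPM on the colour scale, with 0 in grey. EUd columns are filled for 61 of 62 subunits, the EC columns mix high and near-0 values that differ between replicates, and 25 subunits are grey in both mock columns.

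The OXPHOS genes made up 1.57 and 1.41% of all TPM in EUd, 0.643 and 0.938% in EC, and 5.56 and 0.211% in mock. Both EC values were below both EUd values, while the mock values lay on either side of them. Complexes did not hold fixed proportions in EC. Complex IV summed to 1787 TPM in EC replicate 1 and 57.98 TPM in EC replicate 2, against 2008 and 1944 TPM in EUd. Complex III did the opposite, with 24.93 TPM in EC replicate 1 and 1267 TPM in EC replicate 2, against 1405 and 1128 TPM in EUd. In each case 1 EC library was close to reference and the other was far below it. These sums rested on few genes, since the 3 highest members of a complex supplied 81.6 to 99.9% of it in the EC libraries. In EUd this share ran from 27.6 to 84.6%, and in complexes II, III and V it was 77.3 to 84.6%. With 2 libraries against 2, an exact permutation test cannot give a p below 0.33, so these shares are given as values.

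**Figure D2:**
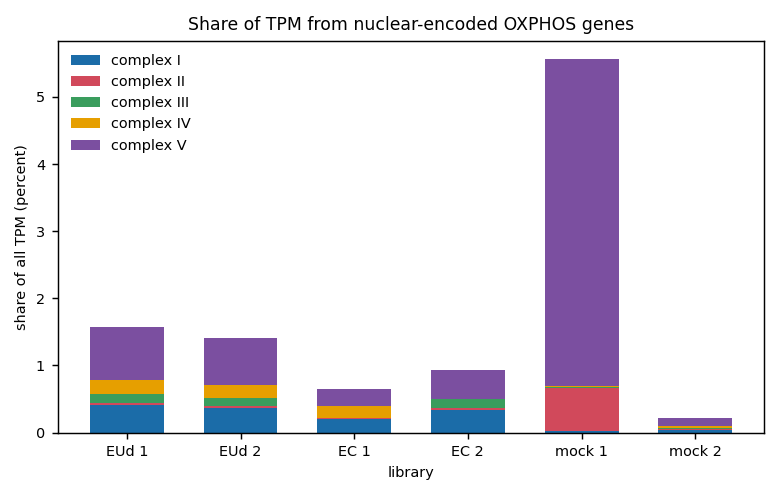
Share of all TPM (percent, stacked bars from 0) that came from the nuclear-encoded OXPHOS genes in each of the 6 libraries, coloured by complex. EUd libraries sit at 1.57 and 1.41%, EC libraries at 0.643 and 0.938%, and mock replicate 1 reaches 5.56%, nearly all of it complex V and complex II.

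The comparison of EC with EUd asks which transcripts are more or less abundant in RNA tagged by the md neuron driver than in RNA of the whole carcass. At the main settings the share of OXPHOS genes lower in EC was close to that of all genes, and 1 was higher. Of the 67 members whose TPM averaged 1 or more across the EC and EUd libraries, 36 (53.7%) were lower and 1, ND-B17.2, was higher by limma on log2(TPM + 1), at an adjusted p below 0.05 and at least 2-fold. The same rule called 56% of all 9064 genes tested lower and 0.199% higher, so at these settings the share of members lower is near that of the table. Among genes that averaged at least 10 TPM, 51.7% of members and 36.5% of all genes were lower. With a pseudocount of 10 the shares were 55.2% and 30.3%, and with a pseudocount of 0.1 they were 47.8% and 58.2%. The median log2 difference of the members was -4.09, beside -2.59 over all genes tested. Of the 36 members called lower, 7 were at 0 in both EC libraries. In the members tested, 44 had both EC values below both EUd values and 1 had both above, beside 69.1% and 3.16% of all genes tested. In bulk RNA of this kind, fewer tagged cells that use a gene and less new RNA per cell cannot be told apart. The muscle markers were also below reference in both EC libraries. Of the detected cuticle genes, Lcp1, Lcp2 and Lcp4 were above it in both, and Lcp3 overlapped it. Lcp4 also had 4039 and 146063 TPM in mock. The part of these muscle and cuticle genes in this result was not tested.

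The call counts depended on scaling and on the EUd and EC libraries used. Median-of-ratios scaling raised EC against EUd by 3.18 log2 units before the pseudocount, and moved the members' median from -4.09 to -2.23. Then 2 of 63 members were higher (ND-B17.2 and ATPsyndelta) and 9 (14.3%) lower, beside 1.67% and 26.4% of all genes. With quantile normalization limma called 0 members and 0 of all genes in either direction. Without EUd replicate 1 the fit called 0 members higher and 19 (29.7%) lower, and without EUd replicate 2 it called 0 and 21 (31.8%), beside 55.3% and 56.0% of all genes lower. With EC replicate 2 alone it called 8 members (11.8%) higher and 46 (67.6%) lower, beside 10.3% and 55.6% of all genes. With EC replicate 1 alone it called 3 (4.41%) higher and 52 (76.5%) lower, beside 7.44% and 62.1%.

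Complex I takes electrons from NADH by a catalytic core and carries many accessory subunits around it. Of its 35 genes tested, 22 (62.9%) were lower in EC and ND-B17.2 was higher, with a median log2 difference of -4.64. Over all genes tested, 56% were lower and the median was -2.59. Among the 7 core genes, 2 were lower, ND-51, which binds NADH, and ND-30, a subunit of the peripheral arm. ND-51 had 88.3 and 89.1 TPM in EUd and 2.07 and 0 TPM in EC (limma log2 difference -5.68, SE 0.81, adjusted p = 0.00989). ND-30 had 65.7 and 58.4 TPM in EUd and 0.721 and 0 TPM in EC (-5.58, SE 0.49, adjusted p = 0.00361). For both genes the EC values lie far below the EUd values in each library.

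The other 5 core genes split between the EC libraries. ND-23, an iron-sulfur subunit that passes electrons towards ubiquinone, was at 107 and 163 TPM in EUd and at 211 and 0.332 TPM in EC. ND-24, a partner of ND-51 in the NADH-oxidising module, was at 41.2 and 56.4 TPM in EUd and at 0 and 165 TPM in EC. ND-75, the largest iron-sulfur subunit of the core, was at 71.6 and 56.9 TPM in EUd and at 0.956 and 123 TPM in EC. Each of these 3 genes was above both EUd values in 1 EC library and close to 0 in the other, and none of the 3 passed the test (limma adjusted p from 0.485 to 0.649). ND-49 and ND-20 had both EC values below both EUd values, at 0.816 and 19.0 TPM for ND-49 and 1.55 and 23.6 TPM for ND-20, and did not pass the test.

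ND-B17.2, an accessory subunit whose human counterpart is NDUFA12, was the one member above reference in both EC libraries. It stood at 207 and 172 TPM in EUd, at 1083 and 871 TPM in EC, and at 0 in both mock libraries. The values in EC came from 810 and 1776 reads, and nearly all of them fell on 1 transcript of 618 bases. The difference from EUd was 2.36 log2 units (SE 0.56, limma adjusted p = 0.0356), with both EC values above both EUd values. The call was lost with quantile normalization (1.94, adjusted p = 0.354), with a pseudocount of 10, when mock joined the fit, with a replicate block, and without either EUd library, and the direction was the same under each rescaling run for it. Its gene (FBgn0031436) lies on chromosome 2L from 2579201 to 2580172 in the BDGP6 annotation and overlaps no other annotated gene.

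The accessory genes with the highest reference levels took different courses. ND-PDSW, which stood at 506 and 457 TPM in EUd, had 529 TPM in EC replicate 1 and 18.7 TPM in EC replicate 2. ND-MLRQ was at 380 and 309 TPM in EUd and at 6.61 and 2.29 TPM in EC, and it was lower (-6.10, SE 1.08, limma adjusted p = 0.0169). ND-AGGG was at 262 and 237 TPM in EUd and at 88.8 and 368 TPM in EC, with overlapping groups. These 3 accessory genes, the most abundant of the complex in reference RNA, shared no direction in EC.

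Further accessory genes gave the smallest p-values and the widest gaps. ND-13B was at 40.8 and 40.3 TPM in EUd and at 0 in both EC libraries (-5.38, SE 0.26, limma adjusted p = 0.00286). ND-18, named for an 18 kDa subunit needed for complex I assembly in mammals, was at 116 and 88.5 TPM in EUd and at 0 in both EC libraries (-6.68, SE 0.45, limma adjusted p = 0.00286). For ND-13B and ND-18 the EC values, both at 0, have no spread in the fit. Their small p-values therefore do not measure how closely EC replicates agree. A floor of 3 reads over both EC libraries places ND-13B at least 35.8-fold lower and ND-18 at least 129-fold lower than in EUd, where these bounds cover counting error only. ND-B15 showed the widest gap between EC libraries of any member, with 2.02 TPM in replicate 1 and 1476 TPM in replicate 2, against 82.9 and 124 TPM in EUd. The ND-B15 values stood for 1 and 1999 reads. The ND-B15 gene (chromosome 2R, 14756516 to 14757072) overlaps Trs31 on the other strand, and since the strand setting of the quantification is not known here, reads of the overlap cannot be assigned.

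Complex II links the citric acid cycle to the respiratory chain through its flavoprotein SdhA, its iron-sulfur protein SdhB and the membrane anchors SdhC and SdhD. Of its 6 genes tested, 1 (16.7%, beside 56% of all genes), SdhC, was lower in EC. SdhC was at 58.8 and 55.9 TPM in EUd and at 1.23 and 0.901 TPM in EC (-4.82, SE 0.47, limma adjusted p = 0.00422). SdhB and SdhD mirrored each other, since SdhB had 170 TPM in EC replicate 1 and 0.202 TPM in replicate 2, and SdhD had 3.23 and 343 TPM, with EUd levels of 51.4 and 49.5 TPM for SdhB and 81.1 and 63.6 TPM for SdhD. SdhA was below reference in both EC libraries, at 28.3 and 17.5 TPM, but did not pass the test (-2.85, SE 1.06, limma adjusted p = 0.107).

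Complex III moves electrons from ubiquinol to cytochrome c. Of its 7 genes tested, 3 (42.9%, beside 56% of all genes) were lower in EC, namely UQCR-C1, UQCR-Q and UQCR-14. UQCR-C1, a large core protein, was at 175 and 105 TPM in EUd and at 1.24 and 0.454 TPM in EC, from 3 reads in each EC library (-6.24, SE 0.72, limma adjusted p = 0.00595). UQCR-Q, a small subunit, was at 148 and 117 TPM in EUd and at 1.02 and 0.376 TPM in EC, from 1 read in each (-6.31, SE 0.64, limma adjusted p = 0.0046). Both genes were near the limit of detection in both EC libraries. UQCR-11, the highest gene of the complex, was at 16.4 and 480 TPM in EC, below both EUd values, and did not pass (-3.09, SE 1.98, limma adjusted p = 0.305). UQCR-C2, the other core protein, was at 1.68 and 293 TPM in EC against 101.2 and 102.3 TPM in EUd.

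Complex IV, cytochrome c oxidase, has its catalytic subunits in mitochondrial DNA, and the nuclear genes here encode the smaller subunits around them. Of its 8 genes tested, 4 (50%, beside 56% of all genes) were lower in EC. COX7C was at 118 and 95.6 TPM in EUd and at 0 in both EC libraries (-6.74, SE 0.45, limma adjusted p = 0.00286), which is at least 56.0-fold lower by the floor of 3 reads. As with ND-13B and ND-18, its EC values have no spread in the fit. COX7A was at 474 and 491 TPM in EUd and at 1101 and 8.42 TPM in EC, and COX6B at 401 and 318 TPM in EUd and at 672 and 2.90 TPM in EC. Both were above reference in EC replicate 1 and far below it in replicate 2, the reverse of UQCR-C2 of complex III. COX5B was at 460 and 458 TPM in EUd and at 6.34 and 43.9 TPM in EC (-4.66, SE 1.43, limma adjusted p = 0.0676).

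Complex V carried the most OXPHOS RNA in EC as in EUd. Of its 11 genes tested, 6 (54.5%, beside 56% of all genes) were lower. Among them were ATPsyngamma of the central stalk, ATPsynO and ATPsynD of the peripheral stalk, and ATPsynbeta. ATPsynbeta was at 417 and 185 TPM in EC (-2.43, SE 0.60, limma adjusted p = 0.0403), and this call turned round with median-of-ratios scaling (0.74, adjusted p = 0.667) and was lost when TPM was rescaled without mitochondrial-genome transcripts (adjusted p = 0.0508). ATPsynC was at 554 and 2463 TPM in EC, below both EUd values, and did not pass (-1.61, SE 0.84, limma adjusted p = 0.216). ATPsynB, a peripheral stalk subunit, was at 202 and 151 TPM in EUd and at 1.56 and 639 TPM in EC.

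ATPsyndelta had the closest match to reference, at 711 and 1025 TPM in EC against 758 and 727 TPM in EUd (0.20, SE 0.39, limma adjusted p = 0.719). Different transcripts carried this sum in the EC libraries. In EC replicate 1 the 978-base transcript had 710 TPM and the 666-base transcript 0, while in EC replicate 2 the 666-base transcript had 1022 TPM and the 978-base transcript 3.30 TPM. In EUd both were present, at 481 and 402 TPM for the longer one and 268 and 318 TPM for the shorter one. ATPsynbeta did the same, since its 1688-base transcript had 390 TPM in EC replicate 1 and 0 in replicate 2, and its 2048-base transcript had 26.5 and 185 TPM. Transcripts of 1 gene share sequence, so how reads were divided among them by the authors' pseudo-alignment is part of these values.

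The 18 paralogs form a group of their own. Many duplicated genes for mitochondrial subunits in Drosophila are known for expression in the testis. In EUd the highest paralog value was 9.59 TPM (COX6AL, replicate 1), and 9 paralogs were at 0 in all 6 libraries. The base gene of each pair was far more abundant, as with COX5B at 460 and 458 TPM beside COX5BL at 3.03 and 0.818 TPM, and ATPsynbeta beside ATPsynbetaL at 1.24 and 0.0543 TPM. In EC, 17 of the 18 paralogs were at 0 in both libraries. At their EUd levels ND-51L2, COX4L, COX5BL, UQCR-11L and ATPsynbetaL would have had only 0.442 to 7.92 reads over both EC libraries. The exception was SdhBL, with 4.80 and 0.471 TPM in EC against 4.95 and 3.995 TPM in EUd. ND-49L and ND-51L1 were called lower in EC from EUd levels of 2.76 and 5.76 TPM and of 3.02 and 1.61 TPM. Of 8 testis markers, 7 were at 0 in both EC libraries and bol was present in all 6. Reads that fit both a paralog and its base gene may have been divided between them. The same may hold for members whose annotated span overlaps another gene. Among them are ND-18 with CG12204, COX7C with oys, SdhD with PTPMT1, UQCR-C2 with Syx8 and ATPsynbeta with CG11076, each on the other strand.

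The members fell into those low in both EC libraries, the largest group, and those that differed between them. Taking 1/8 of the mean EUd level as the line between high and low, 5 of the 60 members of at least 20 TPM were high in both EC libraries, 10 only in replicate 1, 12 only in replicate 2, and 33 in neither. By reads instead, 10 had at least 10 reads in both, 3 only in replicate 1, 13 only in replicate 2 and 34 in neither. The 5 were ND-B17.2, ND-AGGG, ATPsyndelta, ATPsynC and UQCR-6.4, and UQCR-6.4 rested on 3 reads in EC replicate 1, as ND-B12 and ND-MWFE, high only there, did on 2 reads and 1 read. Over all 3595 genes of at least 20 TPM, 20.2% were high in both, 34.4% in 1 and 45.4% in neither, beside 8.33%, 36.7% and 55.0% of the members. High members in EC replicate 1 had a median of 95.7% of the EUd mean, and low members a median of 1.49%. In EC replicate 2 these medians were 191% and 0.424%. Just above the line stood values of 13.4% in replicate 1 and 12.7% in replicate 2, and just below it 11.7% and 12.3%.

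**Figure D3:**
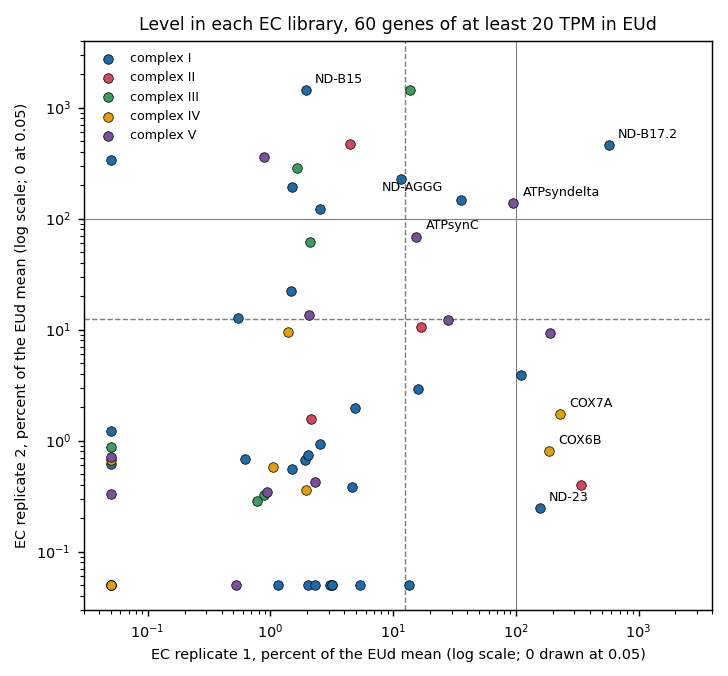
Level of the 60 members of at least 20 TPM in EUd, as percent of the EUd mean, in EC replicate 1 (horizontal) and EC replicate 2 (vertical), both on log scales with 0 drawn at 0.05, coloured by complex. Dashed lines mark 1/8 of the EUd mean and solid lines the EUd mean. The lower left holds 33 genes, the upper left 12, the lower right 10 and the upper right 5.

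On the log2 scale the median gap between replicates was 1.67 in EC and 0.30 in EUd over these 60 members, and 17 of them were more than 10-fold apart in EC on TPM + 1. Across the 60 genes, which share their libraries and are not replicates, the EUd libraries had a Pearson r of 0.90 on log2(TPM + 1), the EC libraries 0.42 and the mock libraries 0.36. The corresponding values over all 3595 genes of at least 20 TPM were 0.90, 0.47 and 0.58. Genes of 1 complex did not move as a unit. In complex I, 4 members were high only in EC replicate 1 and 7 only in replicate 2 (1 and 6 by at least 10 reads), and in complex V the numbers were 2 and 2 (0 and 2).

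Many low EC values were built from fewer than 10 reads. Among the members, 10 rested on 1 read, 26 on 2 to 9 reads and 14 on at least 10 reads in EC replicate 1. In EC replicate 2 these numbers were 11, 14 and 23. Low by the line of 1/8 was not always few reads, since ATPsynbeta had 1660 reads in EC replicate 2. Of the member values of up to 5 reads, 35 of 35 in EC replicate 1 and 24 of 25 in EC replicate 2 lay within 0.05 of a whole number of reads. Of the 4146 transcripts above 0 in both EC libraries, 363 had values in the ratio 2.72, which is the ratio of what 1 read was worth in the libraries. Among them were transcripts of 6 members: ATPsyngamma (5 reads in each library), ND-SGDH and UQCR-C1 (3 in each), ND-ACP (2 in each), and ND-15 and UQCR-Q (1 in each). For such genes a 2.72-fold gap in TPM between replicates stands for equal read numbers.

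**Figure D4:**
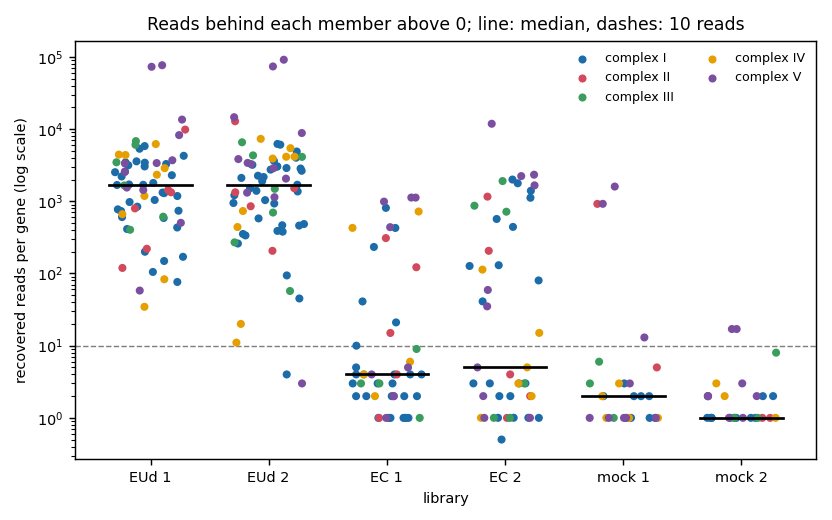
Recovered reads behind each member above 0 (log scale, 1 point per gene, coloured by complex) in the 6 libraries, with the median as a line and 10 reads as dashes. In EUd 68 and 67 members have at least 10 reads, in EC 14 and 23, and in mock 4 and 2.

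The read step also gives the reads expected at a given TPM in each library. If each of the 60 members had kept its mean EUd level, the median member would have had 146 reads in EC replicate 1 and 397 in EC replicate 2. The observed median was 3 reads in each. In EC replicate 1, 59 members would have had at least 10 reads, and 45 of these had fewer, 11 of them 0. In EC replicate 2 the numbers were 60, 37 and 13. Of all genes of at least 20 TPM that would have had at least 10 reads, 65.2% had fewer in EC replicate 1 and 50.2% in EC replicate 2. These numbers rest on TPM shares and on reads that amplification makes more numerous than the RNA molecules sampled. ATPsyngamma illustrates the gap, with 552 and 1500 reads at its EUd level and 5 reads observed in each EC library. COX4, a subunit of cytochrome c oxidase, would have had 217 and 590 reads and had 2 and 3.

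The members were short and of intermediate abundance, and genes with few reads in EUd were often low in EC over the whole table. The median longest transcript was 787 bases for the members and 2161 bases for genes of at least 20 TPM. At equal TPM a short transcript yields fewer reads, so the members were also compared with all genes of the same read number in EUd. Between 200 and 1000 reads, 12 of 17 members (70.6%) were low in both EC libraries, beside 81.3% of all genes. Between 1000 and 2000 reads the shares were 72.7% and 64.5%, between 2000 and 5000 reads 47.6% and 43.8%, and between 5000 and 20000 reads 37.5% (3 of 8 members) and 16.1%. Matched on TPM instead, between 200 and 1000 TPM, 9 of 16 members (56.2%) were low in both, beside 12.0% of all genes. Between 100 and 200 TPM the shares were 50% and 28.5%, between 50 and 100 TPM 75.0% and 41.9%, and between 20 and 50 TPM 37.5% (3 of 8 members) and 59.7%. No test was made of these shares.

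**Figure D5:**
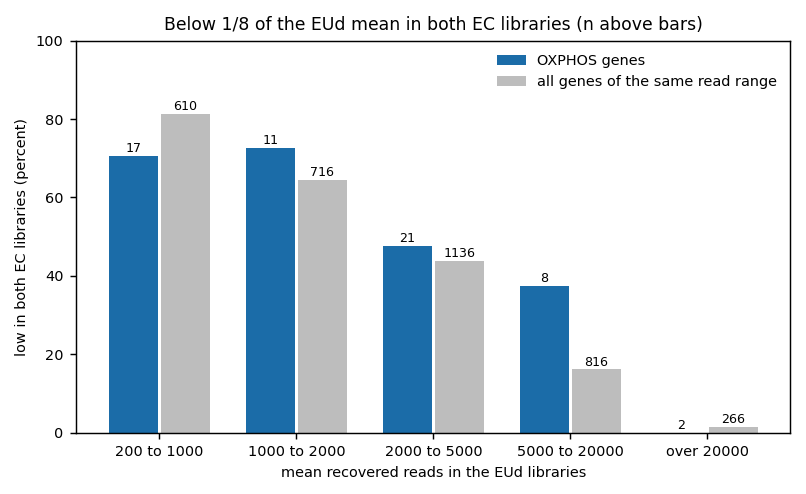
Share of genes (percent) below 1/8 of the EUd mean in both EC libraries, by mean recovered reads in EUd, for the OXPHOS genes and for all genes of the same read range, with the number of genes above each bar. The shares of the members run from 70.6% at 200 to 1000 reads to 37.5% at 5000 to 20000 reads, and those of all genes from 81.3% to 16.1%.

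Mock RNA measures what the purification retains without a tag, and it held too few reads to rank most members. Of the 81 members, 28 were above 0 in each mock library, 4 and 2 of them with at least 10 reads. At their EUd levels the 60 members would have had a median of 7.04 and 3.88 reads, and 16 and 28 of them would have had under 3. The 25 subunits at 0 in both mock libraries included ND-B17.2, COX7A and UQCR-11. Taking paralogs in, 33 members were at 0 in both mock libraries and above 0 in EUd. For 15 of these 33 a floor of 3 reads over both libraries was at or above the EUd level, so no fold can be given, and for 11 it places them at least 2-fold lower. UQCR-11 had the highest bound, at least 10.8-fold lower.

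In the test of mock against EUd, 35 of 67 members (52.2%) were lower and 0 were higher by limma, with 0 higher at an unadjusted p below 0.05, beside 67.1% and 0.731% of all genes tested. The members' median log2 difference was -4.01, beside -3.19 over all genes. Of the 35, 25 were at 0 in both mock libraries. ND-13B, SdhC and ND-39 had the smallest p-values (limma adjusted p = 0.000763 each). Each of these genes was at 0 in both mock libraries, so its mock values have no spread in the fit. The read floor bears on them unequally, since ND-39, an accessory subunit of complex I, is placed at least 4.05-fold lower and SdhC at least 1.33-fold lower, while ND-13B is under the floor. With mock replicate 2 alone the fit called 55 members (80.9%) lower, beside 69.3% of all genes, and with mock replicate 1 alone 57 (83.8%), beside 69.8%. With mock replicate 1 alone it also called SdhBL, ATPsynD and ATPsynC higher.

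A few members carried nearly all the OXPHOS signal of mock replicate 1. ATPsynD, a peripheral stalk subunit of complex V encoded on chromosome 3R from 19095000 to 19096271, was at 37495 TPM in mock replicate 1 and 0 in mock replicate 2, against 231 and 202 TPM in EUd and 1.13 and 0 TPM in EC. SdhBL was at 6330 and 0 TPM in mock. ATPsynC was at 10313 and 443 TPM in mock. These 3 genes made up 98.4% of the members' TPM in mock replicate 1, where ATPsynD had 1598 reads, SdhBL 920 reads and ATPsynC 922 reads. Neither ATPsynD nor SdhBL was detected in the other mock library. The members next in line in mock were ATPsynbeta, at 93.7 and 241 TPM, and ND-PDSW, at 77.1 and 93.3 TPM, the latter from 3 and 2 reads.

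EC against mock asks which transcripts exceed the background of the purification. Among the 47 members tested, limma called 0 higher and 0 lower, beside 0.342% and 0.0244% of all 4096 genes. At an unadjusted p below 0.05 there were 5 higher and 2 lower (10.6% and 4.26%), beside 11.7% and 2.20% of all genes. With EC replicate 2 alone the fit called 7 members higher and 3 lower (15.6% and 6.67%), beside 24.8% and 1.58% of all genes, and with EC replicate 1 alone 4 and 0 (8.70% higher), beside 15.1% and 1.15%. The median log2 difference was -0.28 for the members and 1.91 for all genes tested. Of the 28 members above 0 in each mock library, 13 in replicate 1 and 16 in replicate 2 rested on 1 read. On a short gene 1 mock read was enough to pass the filter, as with UQCR-14, at 35.9 TPM in mock replicate 1. UQCR-14 had 0 and 0.636 TPM in EC. With so few mock reads, these medians cannot show whether the members stood lower against background than other genes. The member with the smallest p was ND-B17.2 (9.93 log2 units, SE 1.42, limma adjusted p = 0.059), with 1083 and 871 TPM in EC and 0 in both mock libraries. ND-B17.2 was called higher under several alternatives that keep every library, among them a pseudocount of 10, quantile normalization and rescaling without mitochondrial-genome transcripts. It was not called with all genes above 0, a mean of at least 10 TPM or a pseudocount of 0.1. Nor was it called with median-of-ratios scaling or without the 10 most abundant transcripts. The other members at an unadjusted p below 0.05 were ND-AGGG, ATPsyndelta, UQCR-11 and COX7A, higher in EC, and UQCR-C1 and COX8, lower in EC. UQCR-C1 had 51.2 and 118 TPM in mock from 6 and 8 reads, against 1.24 and 0.454 TPM in EC from 3 reads in each library. COX8 rested on single reads, with 37.0 and 67.1 TPM in mock from 1 read in each library, against 0 and 0.656 TPM in EC from 0 and 1 read.

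Neighbouring parts of mitochondrial energy metabolism were examined on lists chosen for their function. They are to be read beside all genes tested in EC against EUd, of which 56% were lower, with a median log2 difference of -2.59. Of 11 respiratory chain genes that carry other names, 5 were lower in EC than in EUd and 0 were higher by limma (median -3.43). RFeSP, the Rieske iron-sulfur protein of complex III, was at 149 and 242 TPM in EUd and 1.72 and 1.29 TPM in EC. Cyt-c-p, the main cytochrome c, was at 863 and 803 TPM in EUd and at 10.3 and 1765 TPM in EC, the same split between libraries as seen in the members, and blw, the alpha subunit of ATP synthase, was at 588 and 592 TPM in EUd and 248 and 435 TPM in EC. Of 5 mitochondrial carriers and channels, 4 were lower (median -3.36), led in abundance by sesB, the adenine nucleotide translocase, at 3137 and 2941 TPM in EUd and 325 and 841 TPM in EC. Of 13 citric acid cycle and pyruvate dehydrogenase genes, 3 were lower (median -1.35), and kdn, citrate synthase, was at 434 and 443 TPM in EUd and 171 and 181 TPM in EC. Of 4 regulators of nuclear respiratory genes, 3 were lower, among them srl, the Drosophila PGC-1 homolog, at 31.2 and 38.7 TPM in EUd and 0.385 and 0.157 TPM in EC.

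The subunits encoded in mitochondrial DNA did not follow the nuclear ones. The 13 genes summed to 242109 and 249601 TPM in EUd, 389230 and 310776 TPM in EC, and 38279 and 13873 TPM in mock. Each mock sum was mostly 1 gene that was far lower in the other mock library. For replicate 1 it was mt:ATPase6 (36208 and 310 TPM in mock), and for replicate 2 mt:ND5 (161 and 10705 TPM). Of the 13, 2 were higher in EC than in EUd (mt:CoII and mt:ND6), 2 were lower (mt:ND2 and mt:ND4L), and the median log2 difference was 0.13. Over all genes tested, 0.199% were higher and 56% lower. Against mock, 7 of 12 tested were higher in EC, beside 0.342% of all genes. Rescaled without mitochondrial-genome transcripts, the nuclear OXPHOS genes took 2.07 and 1.87% in EUd and 1.06 and 1.36% in EC, and 34 of 68 members (50%) were lower and ND-B17.2 higher in EC, beside 55.1% of all genes lower.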

How the data were processed

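Libraries of affinity-purified nascent RNA were made from larval carcasses after click biotinylation and rRNA depletion. The authors trimmed reads with Trimmomatic and quantified transcripts with kallisto against the BDGP6 transcriptome (versions and strand setting not given in the sources used here), and the deposited table holds TPM for 30828 transcripts in 6 libraries. TPM was summed by gene here with blanks as 0 (Python 3.11.15, pandas 2.3.3). Genes that averaged 1 TPM or more across the libraries compared were tested by limma 3.58.1 in R 4.3.3 (trended spread, Benjamini-Hochberg over all genes) on log2(TPM + 1), so fold changes of low genes are understated. A call needed an adjusted p below 0.05 and a 2-fold difference. The fit was tested on simulated data that gave all 6 libraries the EUd levels and the spread of the EUd replicates. The low depth of EC and mock was not simulated, so this does not cover the fits of those libraries.

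Reads were recovered from TPM with transcript lengths and positions of Ensembl release 115 (BDGP6.54), which may differ from the authors' annotation; the step and offset were those that put most values at 1 read. ATPsynC lacks a length for 1 transcript, so its reads are partial. The annotated spans of 34 members, introns included, overlap a gene on the opposite strand. A strand-blind count may mix reads there, and overlap of exons was not examined. Named genes were, per complex, the 3 highest in EUd, then the 3 called in each direction with the smallest p, members above EUd in both EC libraries, the 5 with EC values farthest apart, and the 5 highest in mock. Other genes are named from the functional lists or after their values were seen. Members and lists were chosen with earlier results of these data known. Scaling, pseudocount, filter, sample set, block and left-out libraries were varied. Floors (3 reads) cover counting error only.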

Additional observations from a re-analysis of the deposited data

How the results depend on the processing

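For EC against EUd the main counts were 1 member higher and 36 lower, with a median log2 difference of -4.09. The higher count was 0 with a pseudocount of 10, quantile normalization or all 3 sample types in one fit, 2 with median-of-ratios scaling, and 0 to 8 with 1 library left out. The lower count was 0 with quantile normalization, 9 with median-of-ratios scaling and 19 to 52 with 1 library left out. The median was -4.74 with a mean of at least 10 TPM, -5.16 and -2.54 with pseudocounts of 0.1 and 10, -2.60 with quantile normalization, -2.23 with median-of-ratios scaling, and -5.00 to -4.53 with 1 library left out. ATPsynbeta turned to 0.74 with median-of-ratios scaling. For EC against mock the higher count, 0, became 1 with a pseudocount of 10, quantile normalization, no mitochondrial-genome transcripts, or at least 10 reads in 1 library (added after the data were seen), 3 with all sample types in one fit, and 0 to 7 with 1 library left out. The lower count, 0, became 1 with all sample types in one fit (2.13%, beside 0.977% of all genes). The median, -0.28, was 0.50 with all genes above 0, 0.40 with a mean of at least 10 TPM, 0.81 without mitochondrial-genome transcripts, -1.71 with quantile normalization, and -1.55 to 0.60 with 1 library left out. For mock against EUd the lower count, 35, was 16 with quantile normalization, 23 with median-of-ratios scaling and 26 to 57 with 1 library left out, and the higher count was 0 to 3. Its median, -4.01, was -4.31 with a mean of at least 10 TPM, -5.94 and -2.47 with pseudocounts of 0.1 and 10, -1.30 with quantile normalization, -2.69 with median-of-ratios scaling, -4.37 without mitochondrial-genome transcripts, and -4.30 to -3.36 with 1 library left out. The OXPHOS share of TPM, 1.49% in EUd and 0.79% in EC as means, was 1.97 and 1.21% without mitochondrial-genome transcripts and 2.16 and 1.30% without the 10 most abundant transcripts. The cause of these shifts was not tested. Fits with 1 library in a group assume that it varies like the other group.

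Deviations of same-numbered libraries from their group means had correlations of 0, 0 and 0.01 over 8532 genes. Since most genes had few reads in EC and mock, these values cannot show whether same-numbered samples were handled together. With a replicate block, EC against EUd gave 0 members higher and 29 lower (43.3%, beside 50.1% of all genes). EC against mock gave 1 higher (2.13%, beside 3.83% of all genes) and 0 lower. The block left 25 lower in mock against EUd (37.3%, beside 62.9% of all genes).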
